A study of Canis lupus familiaris with 18 samples.

Results

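The region described here is the canine counterpart of the Williams syndrome locus, taken from 5.00 to 7.50 Mb on CFA6 (CanFam3.1) without the window from 5.72 to 5.85 Mb around *GTF2I*. Its members are all deposited *ChIP-seq* peaks that overlapped the 2.5 Mb and did not overlap the window of 130 kb. They numbered 3155 of the 1381743 peaks in the 12 lists, of which 1742 were *E2F1* peaks and 1413 were *H3K27ac* peaks. Within the q limits of the study's methods, below 0.0005 for *E2F1* and below 0.05 for *H3K27ac*, 669 *E2F1* and 1343 *H3K27ac* peaks remained, and these are used below unless stated otherwise.

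The peaks come from the pons, a part of the brainstem, of 6 male dogs between 12 and 16 years old. A short transposable element sits in intron 17 of *GTF2I* in the ancestral allele and is missing from the derived allele. Of the dogs, 3 carried 1 copy of the insertion and are called ancestral, and 3 carried none and are called derived. Each dog gave 1 *E2F1* and 1 *H3K27ac* list. No ancestral dog was homozygous, 1 ancestral dog was a Labrador Retriever and the other dogs were of mixed breed, and within each genotype the dogs also differed at the 3 other polymorphic transposable elements on CFA6, at *WBSCR17* and *POM121*. Flash-frozen tissue holds neurons and glia together, and in such bulk samples fewer cells with a mark cannot be told apart from less of the mark per cell.

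In people, a deletion of 1 copy of this gene cluster causes Williams syndrome, a disorder with high sociability, craniofacial features and vascular disease. *E2F1* is a transcription factor best known for switching on genes of DNA replication and the cell cycle at promoters. *H3K27ac*, the acetylation of lysine 27 of histone H3, marks active promoters and enhancers, and broad stretches of it are typical of highly active genes. *Capture C* pulls down the DNA that touches a chosen viewpoint in the nucleus and so lists the bins in contact with it, here with the site of the transposable element.

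Genes could be set on the map only in part. The UU_Cfam_GSD_1.0 assembly, used here for names and order alone, has 44 of the 47 genes of the Williams locus and its flanks that were listed for this work. Going up the chromosome it places *AUTS2*, linked to neurodevelopment, then *NCF1*, a subunit of the phagocyte oxidase, *GTF2I* and its paralog *GTF2IRD1*. They are followed by *CLIP2*, a microtubule linker, *RFC2*, a subunit of the replication clamp loader, *LAT2*, *EIF4H*, *LIMK1*, a kinase of the actin cytoskeleton, and *ELN*, the gene of elastin. Further up lie *CLDN4* and *CLDN3* of the tight junction, *STX1A* of synaptic vesicle fusion, *BAZ1B*, a chromatin remodeller, and *FZD9*, a Wnt receptor. *GTF2IRD2*, *POM121* and *TYW1* did not match by symbol. No annotation of CanFam3.1 was used here, so peaks are given by position, and counts of peaks at the promoters of these genes or at marker genes of cell types were not made.

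*H3K27ac* covered far more of the locus than *E2F1* in every dog, and the dogs differed more in *E2F1*. The *H3K27ac* peaks covered 737, 427 and 512 kb in ancestral dogs 1 to 3, against 568, 629 and 530 kb in derived dogs 1 to 3, out of 2.37 Mb. The *E2F1* peaks covered 33.1, 55.3 and 50.8 kb in the ancestral dogs, against 12.7, 102 and 27.7 kb in the derived dogs. Derived dog 2 thus had the most *E2F1* and derived dog 1 the least, so the ancestral values lay between 2 derived dogs. The peak lists hold no read totals, so how far depth goes into these numbers was not tested.

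There were 77, 125 and 121 *E2F1* peaks in ancestral dogs 1 to 3, against 42, 218 and 86 in derived dogs 1 to 3. The means were 108 ± 26.6 (SD, n = 3) and 115 ± 91.6 (SD, n = 3), a difference that lay within the spread between dogs (exact permutation test, two-sided, p = 0.9). Here and in every other comparison of 3 dogs against 3, the test has 20 assignments and cannot give a p below 0.1. For *H3K27ac*, the lists held 289, 179 and 208 peaks in the ancestral dogs, against 235, 214 and 218 in the derived dogs (exact permutation test, two-sided, p = 1). The covered lengths did not separate the genotypes either, with a difference of 1.13 kb for *E2F1* (exact permutation test, p = 1) and of 16.8 kb for *H3K27ac* (p = 0.9).

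Most 20-kb bins had an *H3K27ac* peak in all dogs, whereas few had an *E2F1* peak in all. A bin counted where a peak overlapped it by at least 1 bp, and *H3K27ac* covered 18.0% to 31.1% of the locus per dog. The *H3K27ac* peaks were also wider, with medians per dog of 1283 to 1596 bp against 276 to 380 bp. How far width goes into the contrast was not tested. Of the 119 bins, 75 (63.0%) had *H3K27ac* in all 6 dogs and 7 had it in none. In contrast, 10 bins (8.40%) had an *E2F1* peak in all 6 dogs and 8 had it in none. The most frequent number of dogs with *E2F1* in a bin was 3, in 32 bins. These bin counts are not set against the rest of CFA6 here. An *H3K27ac* peak was found in 104, 83 and 89 bins of the ancestral dogs, against 91, 91 and 93 bins of the derived dogs. An *E2F1* peak was found in 51, 67 and 68 bins of the ancestral dogs, against 34, 86 and 62 bins of the derived dogs. Neither count differed between genotypes beyond the spread between dogs (exact permutation tests, p = 1 for both).

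**Figure D1:**
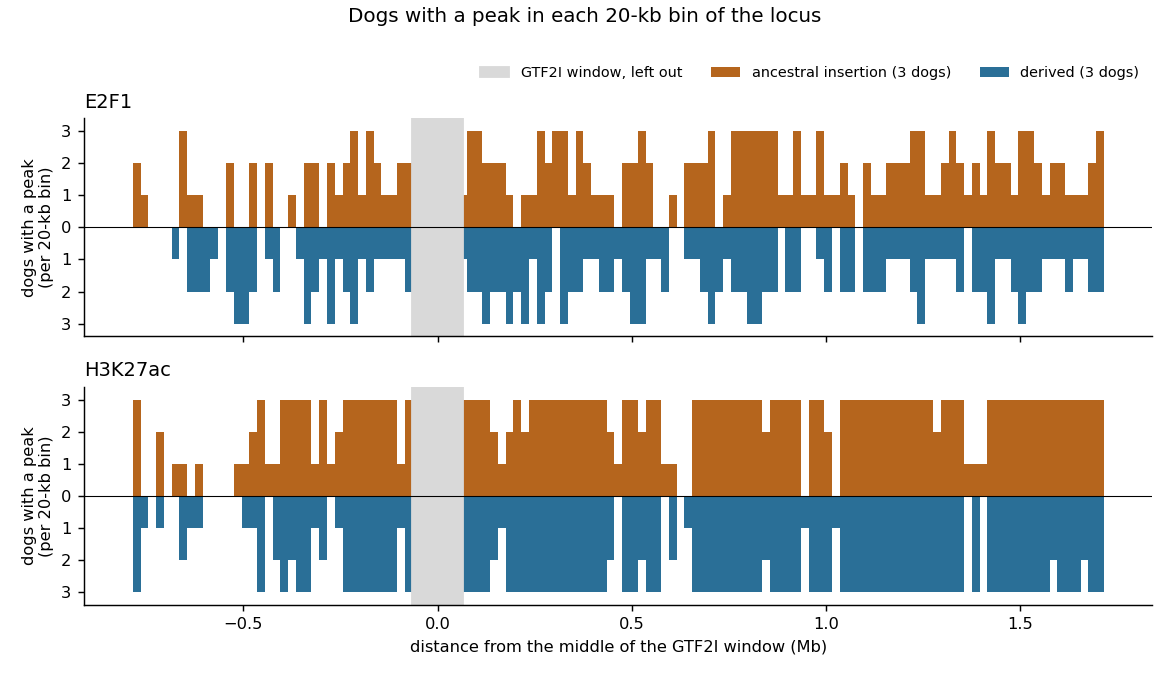
Number of dogs with a peak in each 20-kb bin (ancestral dogs above the line, derived dogs below it) against the distance from the middle of the GTF2I window in Mb, for *E2F1* (top) and *H3K27ac* (bottom). Each of the 6 dogs has an *H3K27ac* peak wholly or in part in 75 of the 119 bins. These bins thin out at the low end of the locus, and *E2F1* reaches all 6 dogs in 10 bins.

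Of the 10 bins with *E2F1* in all dogs, 9 also had *H3K27ac* in all dogs, and the tenth, from 6.30 to 6.32 Mb, had it in 4. Among all 119 bins, 75 (63.0%) had *H3K27ac* in all dogs. Bins with *H3K27ac* in all dogs had *E2F1* in a mean of 3.49 dogs, bins with it in 1 to 5 dogs in a mean of 2.68, and the 7 bins without it in a mean of 1.00. Across the 118 full bins the mean covered lengths of both marks had a Spearman rho of 0.61, given as a description because neighbouring bins share wide peaks and all bins share the same dogs.

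By the mean over dogs, the low end of the locus was the poorest in both marks, and for *H3K27ac* this held in each dog. Between 5.0 and 5.5 Mb, *H3K27ac* covered 8.70%, 5.55% and 2.54% of the sequence in ancestral dogs 1 to 3, against 3.05%, 3.12% and 3.50% in derived dogs 1 to 3. Between 7.0 and 7.5 Mb it covered 47.1%, 31.4% and 35.5% in the ancestral dogs, against 39.5%, 37.7% and 34.7% in the derived dogs. The first of these segments was the lowest and the last the highest of the 5 half-megabase segments in 6 of 6 dogs. The means of the segments between them were 21.4%, 23.8% and 31.7%. The longest stretches without *H3K27ac* in any dog all lay in the low segment, at 5174363 to 5269644 (95.3 kb), 5022165 to 5071368 (49.2 kb) and 5072817 to 5114068 (41.3 kb). Even the first of them held 9 *E2F1* peaks, in 5 dogs, while the other two held 1 each.

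For *E2F1* the low segment was not the poorest in derived dog 1, where it was richer than 3 of the other 4, and it was the one in which the genotypes did not overlap. It covered 0.385%, 0.242% and 0.484% of the sequence in ancestral dogs 1 to 3, against 0.684%, 0.801% and 0.729% in derived dogs 1 to 3. Each derived dog was above each ancestral dog, which gives the smallest p the design allows (exact permutation test, two-sided, p = 0.1, adjusted p = 1 over 10 segments and marks). The same order was found in 1.33% of the 150 half-megabase segments with *E2F1* on the rest of CFA6. The difference, derived minus ancestral, was 0.368 percentage points, and 0.633 with all deposited *E2F1* peaks (exact permutation test, p = 0.1). Dropping any 1 dog gave differences from 0.304 to 0.425. At q below 1e-10, where the lists kept 0 to 17 *E2F1* peaks of the locus, the difference turned, to -0.0256 percentage points. With equal peak numbers per dog it was 0.256 and the genotypes overlapped (exact permutation test, p = 0.2). The other 4 segments had mean *E2F1* coverage of 1.98%, 2.49%, 2.06% and 2.82%, and the genotypes overlapped in each.

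Both marks were denser in the locus than on the rest of CFA6, dog by dog. The *H3K27ac* peaks covered 31.1%, 18.0% and 21.6% of the locus in ancestral dogs 1 to 3, against 16.6%, 11.5% and 12.7% of the rest. In derived dogs 1 to 3 they covered 24.0%, 26.5% and 22.4% of the locus, against 14.2%, 14.1% and 14.1% of the rest. The mean difference was 10.1 ± 2.91 percentage points (SD, n = 6 dogs), higher in 6 of 6 dogs (exact sign-flip test, two-sided, 64 sign assignments, p = 0.03125, the smallest it can give). The peaks per Mb were 94.4 ± 15.5 in the locus and 54.4 ± 7.39 on the rest (SD, n = 6, exact sign-flip test, p = 0.03125). This test asks whether the dogs share a direction, not whether the locus stands out among other stretches of the chromosome.

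The *E2F1* peaks covered 1.40%, 2.33% and 2.14% of the locus in ancestral dogs 1 to 3, against 0.784%, 1.09% and 1.18% of the rest of CFA6. In derived dogs 1 to 3 they covered 0.537%, 4.31% and 1.17% of the locus, against 0.399%, 1.83% and 0.691% of the rest. All dogs were higher in the locus, by 0.138 to 2.48 percentage points, with a mean of 0.985 ± 0.828 (SD, n = 6, exact sign-flip test, two-sided, p = 0.03125). The peaks per Mb were 47.0 ± 25.5 and 23.6 ± 9.67 (SD, n = 6, exact sign-flip test, p = 0.03125). This was not found for the strongest *E2F1* peaks. At q below 1e-10 the lists kept 2, 6 and 17 peaks of the locus in the ancestral dogs, against 0, 15 and 6 in the derived dogs, and the difference in coverage was 0.0411 percentage points, with a lower share in the locus in 4 of 6 dogs (exact sign-flip test, p = 0.5).

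**Figure D2:**
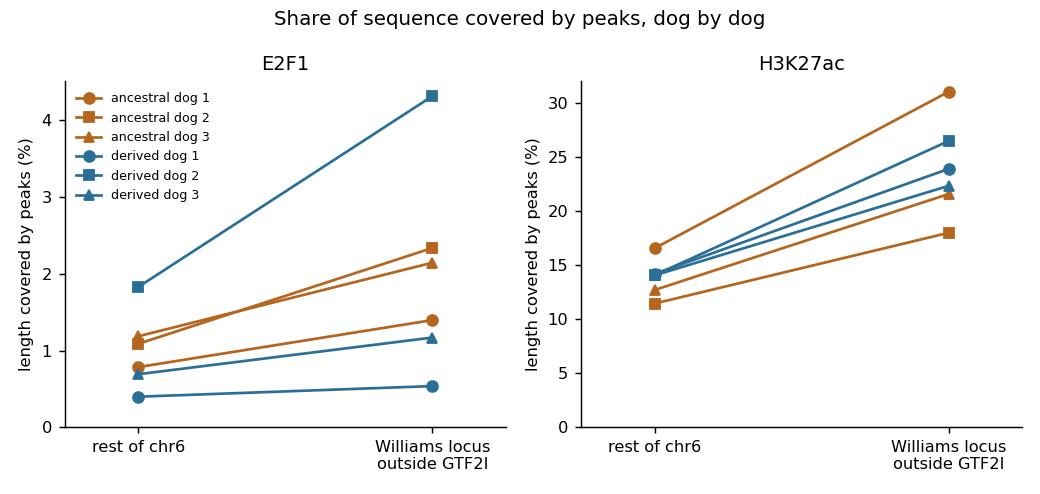
Share of sequence covered by peaks (%) on the rest of chr6 and in the locus, with a line for each dog (brown, ancestral; blue, derived; symbols, dogs 1 to 3). All 6 lines rise for both marks, and the ancestral and derived dogs overlap.

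The enrichment over the rest of the chromosome did not differ between genotypes beyond the spread between dogs. Coverage of the locus over coverage of the rest was 1.78, 2.15 and 1.81 for *E2F1* in ancestral dogs 1 to 3, against 1.35, 2.36 and 1.69 in derived dogs 1 to 3 (difference of the log2 ratios -0.12, exact permutation test, p = 0.7). For *H3K27ac* it was 1.87, 1.57 and 1.70 in the ancestral dogs, against 1.68, 1.88 and 1.59 in the derived dogs (exact permutation test, p = 0.9). The locus was not the densest part of the chromosome. Among 31 stretches of 2.5 Mb its rank was 5 for *E2F1* and 7 for *H3K27ac* by mean coverage, and the other stretches reached up to 3.12% and 35.7%, with medians of 0.608% and 12.3%. Peak widths were like those elsewhere, with median *E2F1* widths per dog of 276 to 380 bp in the locus and 286 to 355 bp on the rest, and median *H3K27ac* widths of 1283 to 1596 bp and 1255 to 1517 bp.

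The share of *E2F1* peaks with acetylation in the locus lay on both sides of that elsewhere, depending on the dog. The share of *E2F1* peaks lying over acetylated sequence of the same dog, with a minimum overlap of 1 bp, was 57.1%, 45.6% and 52.1% in ancestral dogs 1 to 3, against 26.2%, 50.5% and 27.9% in derived dogs 1 to 3. On the rest of CFA6 it was 48.9%, 45.7% and 47.3% in the ancestral dogs, against 34.8%, 55.3% and 38.5% in the derived dogs. The mean difference was -1.85 ± 7.49 percentage points (SD, n = 6), with a higher share in the locus in 2 of 6 dogs (exact sign-flip test, two-sided, p = 0.469). With all deposited *E2F1* and *H3K27ac* peaks the sign turned, to 2.73 ± 0.748 percentage points, higher in the locus in 6 of 6 dogs (exact sign-flip test, p = 0.03125). In both settings the difference between locus and rest was higher in each ancestral dog than in each derived dog, an order found in 3.33% of 30 other stretches of 2.5 Mb on CFA6.

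Merging the peaks of all dogs that overlapped or touched gave 508 *E2F1* and 313 *H3K27ac* regions in the locus. Of the *E2F1* regions, 415 (81.7%) were found in a single dog, 62 in 2 dogs, 19 in 3, 3 in 4, 7 in 5 and 2 in all 6. Derived dog 2 alone accounted for 146 of the single-dog regions and derived dog 1 for 28. The *H3K27ac* regions were more often shared, with 89 (28.4%) in all 6 dogs and 99 (31.6%) in a single dog, of which 49 were of ancestral dog 1. The 89 regions of all dogs made up 65.9% of the length of all *H3K27ac* regions, with a median width of 4330 bp against 457 bp for those of a single dog. An *E2F1* peak of any dog lay in 71 of the 89 (79.8%) and in 15 of the 99 regions of a single dog (15.2%). How far the greater width of the shared regions goes into this was not tested.

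On the rest of CFA6 the single-dog share was 81.3% for *E2F1* and 34.7% for *H3K27ac*, and 0.949% and 29.3% of regions were found in all dogs. *E2F1* regions of 4 or more dogs made up 2.36% of regions in the locus and 4.57% on the rest. The Jaccard index of a pair of dogs, their common peak length divided by the length either covers, had a median of 0.0609 for *E2F1* in the locus and 0.103 on the rest. It was lower in the locus in all 15 pairs of dogs. For *H3K27ac* the medians were 0.578 and 0.595, with 2 of 15 pairs higher in the locus. Dogs of the same genotype had a mean index of 0.0644 for *E2F1* and 0.565 for *H3K27ac*, and dogs of different genotypes 0.0585 and 0.572. These are descriptions, since the pairs share dogs.

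**Figure D3:**
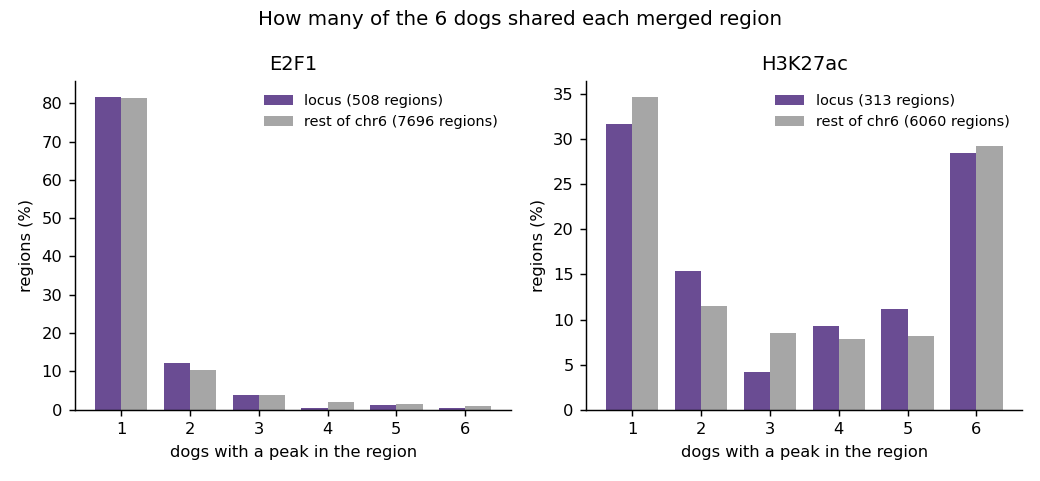
Share of merged regions (%) against the number of dogs with a peak in them, in the locus (purple) and on the rest of chr6 (grey). Single-dog regions make up 81.7% of *E2F1* regions in the locus, and *H3K27ac* has 1 group of 99 regions in a single dog and another of 89 in all 6.

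No region of the locus was called in every dog of 1 genotype while missing from every dog of the other. Among 508 *E2F1* regions, 0 were ancestral only and 0 derived only, and among 313 *H3K27ac* regions the counts were also 0 and 0. These counts come from no test. Over the genome, 0.118% of *E2F1* regions were ancestral only and 0.0484% derived only, and for *H3K27ac* the shares were 0.258% and 0.351%. At those shares the locus would hold 0.599 and 0.246 *E2F1* and 0.809 and 1.10 *H3K27ac* regions, and the counts of 0 are to be read against these numbers.

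The weaker pattern, 2 or more dogs of 1 genotype and none of the other, was counted after the data were seen. It was found in 9 *E2F1* regions for the ancestral dogs (1.77%, against 1.92% on the rest of CFA6) and 10 for the derived dogs (1.97%, against 1.62%). For *H3K27ac* it was found in 5 regions (1.60%, against 2.16%) and 6 regions (1.92%, against 2.33%). The shares in the locus were near those of the rest of the chromosome.

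When all deposited *E2F1* peaks were used, 5 of 1198 regions were found in 1 genotype only. The derived dogs had 4 of them (0.334%, against 0.174% over the genome), from 5977558 to 5978170, 5981536 to 5981976, 6021775 to 6022286 and 6451752 to 6452750. In each of these 4, at least 1 dog had only a peak above the q limit. The ancestral dogs had 1 (0.0835%, against 0.108%), from 7052539 to 7053347, where 1 of 3 dogs was within the q limit and *H3K27ac* was found in all 6 dogs.

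Read by 20-kb bins, a few positions separated the genotypes by covered length. Every ancestral dog had more *E2F1* than every derived dog in 4 of the 111 bins with any *E2F1* (3.60%, against 1.74% on the rest of CFA6), and the reverse held in 2 bins (1.80%, against 0.811%). For *H3K27ac* each direction held in 1 of 112 bins (0.893%, against 2.17% for ancestral above derived and 3.45% for derived above ancestral). The bin from 6.08 to 6.10 Mb appeared for both marks. There the *E2F1* peaks covered 0.472, 0.894 and 1.28 kb in ancestral dogs 1 to 3, and no derived dog had an *E2F1* peak. In the same bin *H3K27ac* covered 14.0, 11.8 and 12.7 kb in the ancestral dogs, against 15.0, 17.8 and 14.5 kb in the derived dogs. With all deposited peaks derived dogs 1 and 2 also had *E2F1* there, 0.715 and 2.10 kb, and the separation was gone, while that of *H3K27ac* stayed. These bins were named after their values were seen.

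The other *E2F1* bins of this kind were those from 5.12 to 5.14, 6.56 to 6.58 and 7.02 to 7.04 Mb, higher in the ancestral dogs, and from 5.26 to 5.28 and 5.28 to 5.30 Mb, higher in the derived dogs. None of the 6 *E2F1* bins was separated with all deposited peaks or at q below 1e-10. The other *H3K27ac* bin, from 7.46 to 7.48 Mb, held 8.57, 7.26 and 8.15 kb in the ancestral dogs, against 5.58, 5.97 and 7.0 kb in the derived dogs. It was separated with all deposited peaks but not at q below 1e-05, where only ancestral dog 2 and derived dog 3 kept *H3K27ac* in it.

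Only 2 *E2F1* regions were called in all 6 dogs. Ranks by q, here and below, are among all deposited peaks of a list, so peaks within the q limit start high. The median kept *E2F1* peak of the locus stood at 79.3%, 74.9% and 79.1% in ancestral dogs 1 to 3. In derived dogs 1 to 3 it stood at 92.3%, 77.7% and 83.2%. The first region ran from 6594753 to 6595672. Its peaks stood above 83.5%, 98.2% and 97.6% of the list in the ancestral dogs, against above 92.6%, 98.9% and 97.3% in the derived dogs. It carried *H3K27ac* in 5 of 6 dogs. The second ran from 7214438 to 7215356, with peaks above 95.9%, 93.4% and 93.9% of the list in the ancestral dogs and above 86.6%, 99.1% and 88.8% in the derived dogs. This region carried *H3K27ac* in 1 of 6 dogs, a derived dog. Neither of the most widely shared *E2F1* regions was acetylated in every dog. With derived dog 1 left out, 7 regions were called in all other dogs.

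Of the 7 regions called in 5 dogs, 5 lacked a peak in derived dog 1, which had the fewest *E2F1* peaks, 1 lacked it in ancestral dog 2 and 1 in derived dog 3. The region from 6550283 to 6552128 ranked highest, above 98.1% or more of the list in all 5 dogs, with the authors' fold enrichment at 9.55, 10.7 and 17.1 in the ancestral dogs, against 8.75 and 8.34 in derived dogs 2 and 3. It held the strongest *E2F1* peak of the locus, by q, in ancestral dogs 1 and 3. The region from 6708557 to 6709601 held the strongest peak of ancestral dog 2, at 14.8-fold. The others ran from 6119068 to 6120277, 7009874 to 7010812, 7486772 to 7490427 and 7490497 to 7492619. Each of these 6 carried *H3K27ac* in all 6 dogs. The seventh, from 7299441 to 7301089, carried it in none and began just beyond an acetylated region, described next, that ended at 7299316.

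The widest *H3K27ac* region shared by all dogs was a broad domain of 102 kb, from 6939714 to 7041312. It was covered for 87.9, 93.4 and 87.0 kb in ancestral dogs 1 to 3, against 91.6, 99.1 and 88.9 kb in derived dogs 1 to 3, and the genotypes overlapped. A single peak made up most of the domain in derived dog 2, with a width of 94.5 kb, and the widest peak of the other dogs measured 40.2 to 66.0 kb. All of these wide peaks ended within the same last kilobase of the domain. The domain contained the 4 bins with the most *H3K27ac* in the locus, and the bin from 7.02 to 7.04 Mb was covered in full, 20 kb, in every dog. *E2F1* had 6, 10 and 12 peaks in the domain in the ancestral dogs, against 1, 9 and 2 in the derived dogs. The *E2F1* region from 7009874 to 7010812 lay in it.

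**Figure D4:**
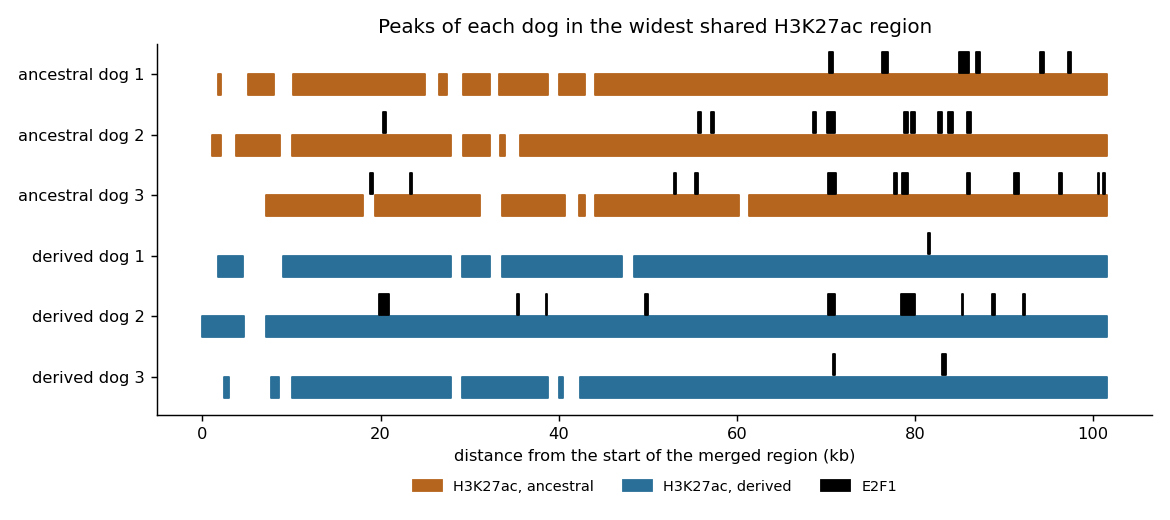
Peaks of each dog in the widest *H3K27ac* region shared by all dogs, against the distance in kb from its start (colour, *H3K27ac*; black, *E2F1*). The *H3K27ac* peaks cover 87.0 to 99.1 kb of the 102 kb in each dog and end together, and the *E2F1* peaks number 1 to 12.

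The second of these regions began at the edge of the *GTF2I* window and ran from 5850001 to 5885451. Inside it *H3K27ac* covered 32.6, 22.2 and 25.6 kb in ancestral dogs 1 to 3, against 29.9, 35.4 and 28.6 kb in derived dogs 1 to 3. In derived dog 2 it was 1 peak of 37.9 kb, from 5847579 to 5885440, that crosses the window edge. All 6 dogs had such a crossing *H3K27ac* peak at 5.85 Mb, as did 1 *E2F1* list at 5.72 Mb. These 7 peaks are not members, and lengths and regions here use only their parts outside the window. The other 3 of the widest regions ran from 7087675 to 7114804, 7273850 to 7299316 and 6101852 to 6125363, with widths of 27.1, 25.5 and 23.5 kb. Within them the *H3K27ac* of the dogs covered 13.5 to 25, 10.8 to 22.7 and 16.8 to 22.9 kb.

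The bins with the most *E2F1* were not all shared evenly. The first, from 7.48 to 7.50 Mb, held 3.41, 5.74 and 4.82 kb in ancestral dogs 1 to 3, and 0, 4.79 and 2.10 kb in derived dogs 1 to 3. The bin from 6.54 to 6.56 Mb held 1.75 to 2.40 kb in 5 dogs and none in derived dog 1. Bins from 7.0 to 7.02 and 6.10 to 6.12 Mb held means of 1.27 ± 1.00 and 1.13 ± 0.618 kb (SD, n = 6). The bin from 6.30 to 6.32 Mb entered this group through 1 dog, with 7.60 kb in derived dog 2 and 0.136 to 1.03 kb in the other dogs. *H3K27ac* was found in all 6 dogs in these bins except the last, where it was found in 4.

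The *Capture C* contacts give the question of whether the bins that touched the transposable element site differed in either mark between genotypes. Of the 15 bins in the supplementary list of contacts, 10 lay wholly or in part outside the *GTF2I* window, 7 listed for the ancestral allele, 2 for the derived allele and 1 for both. Several of them overlap each other. The study called the contacts by genotype, in dogs of this set. Listed for the ancestral allele thus means listed for the dogs heterozygous for the insertion, which also carry the derived allele. The difference in covered length between genotypes was within the spread between dogs in each bin and for both marks. The smallest p was 0.2 (exact permutation test, two-sided) and the smallest adjusted p 0.8, so 0 of 10 bins passed for either mark, and none could at this size.

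The contact bin at *GTF2IRD2*, a paralog of *GTF2I*, lies in its intron 1 from 5650000 to 5670000 and was listed for the ancestral allele. *H3K27ac* covered 11.1, 2.55 and 1.08 kb of it in ancestral dogs 1 to 3, against 2.36, 3.14 and 4.57 kb in derived dogs 1 to 3. Ancestral dog 1 stood above the rest, and the other 5 dogs overlapped. *E2F1* was found only in derived dog 2, with 2 peaks that covered 0.491 kb.

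Of the contact bins, 7 tile the stretch from 5.85 to 5.90 Mb, next to the *GTF2I* window, and most of it belongs to the second widest *H3K27ac* region. The bin from 5850000 to 5870000, listed for the ancestral allele, was covered for 17.1, 9.28 and 16.4 kb in the ancestral dogs, against 17.2, 20 and 15.4 kb in the derived dogs (exact permutation test, p = 0.4, adjusted p = 0.8). The bin from 5860000 to 5880000, also listed for the ancestral allele, was covered for 18.5, 13.7 and 15.1 kb in the ancestral dogs, against 16.3, 20 and 18.5 kb in the derived dogs (exact permutation test, p = 0.2, adjusted p = 0.8). The overlapping bins from 5841142 to 5860000, of which 10 kb lie outside the window, and from 5859985 to 5878130 gave p = 0.5 and p = 0.2 in the same exact test (adjusted p = 0.833 and 0.8).

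In the bin from 5870000 to 5890000, listed for both alleles, *H3K27ac* covered 15.8, 13.1 and 10.7 kb in the ancestral dogs, against 14.0, 18.2 and 13.2 kb in the derived dogs. The bins listed for the derived allele alone were those from 5878131 to 5886169 and from 5880000 to 5900000. The first was covered for 7.32, 7.30 and 4.86 kb in the ancestral dogs, against 7.18, 7.31 and 5.00 kb in the derived dogs. The second was covered for 7.28, 5.78 and 5.84 kb in the ancestral dogs, against 8.54, 9.73 and 4.22 kb in the derived dogs. Acetylation thus separated the genotypes in none of the 7 bins. Without the peaks that cross the window edge, among them the peak of 37.9 kb of derived dog 2, the difference turned in 6 of the 7. In the bin from 5860000 it turned to -4.16 kb (exact permutation test, p = 0.9). That setting drops such peaks whole, with their parts outside the window, and leaves derived dog 2 no *H3K27ac* in this bin. With derived dog 2 left out instead, the difference there was 1.65 kb (exact permutation test, p = 0.4).

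*E2F1* varied among the dogs in these 7 bins. In the bin from 5860000 to 5880000 it covered 0.368, 1.07 and 1.58 kb in ancestral dogs 1 to 3, 0.243 and 1.40 kb in derived dogs 1 and 2 and none in derived dog 3. Derived dog 3 had no *E2F1* peak from 5.85 to 5.90 Mb. The strongest *E2F1* peak of the stretch belonged to ancestral dog 3, from 5850091 to 5850601, just beyond the window, with a fold enrichment of 10.4, above 97.3% of its list. No other dog had a peak there within the q limit.

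The contact bins farther up were less acetylated. From 5910000 to 5930000, listed for the ancestral allele, *H3K27ac* covered 4.38, 0 and 1.07 kb in the ancestral dogs, against 4.31, 4.20 and 1.33 kb in the derived dogs, and *E2F1* covered 0, 0 and 0.867 kb in the ancestral dogs, against 0.393, 1.61 and 1.26 kb in the derived dogs (exact permutation test for *E2F1*, p = 0.2, adjusted p = 1). From 6289184 to 6320034, listed for the ancestral allele, *H3K27ac* covered 2.02, 0.352 and 2.11 kb in the ancestral dogs, against 0, 6.89 and 0.906 kb in the derived dogs. *E2F1* covered 0.264, 0.817 and 1.03 kb in the ancestral dogs, against 0.469, 8.23 and 0.302 kb in the derived dogs. Derived dog 2 had 15 *E2F1* peaks in this bin of 30.9 kb, and the other dogs had 1 to 3 each. This cluster in 1 dog includes the bin from 6.30 to 6.32 Mb described above.

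**Figure D5:**
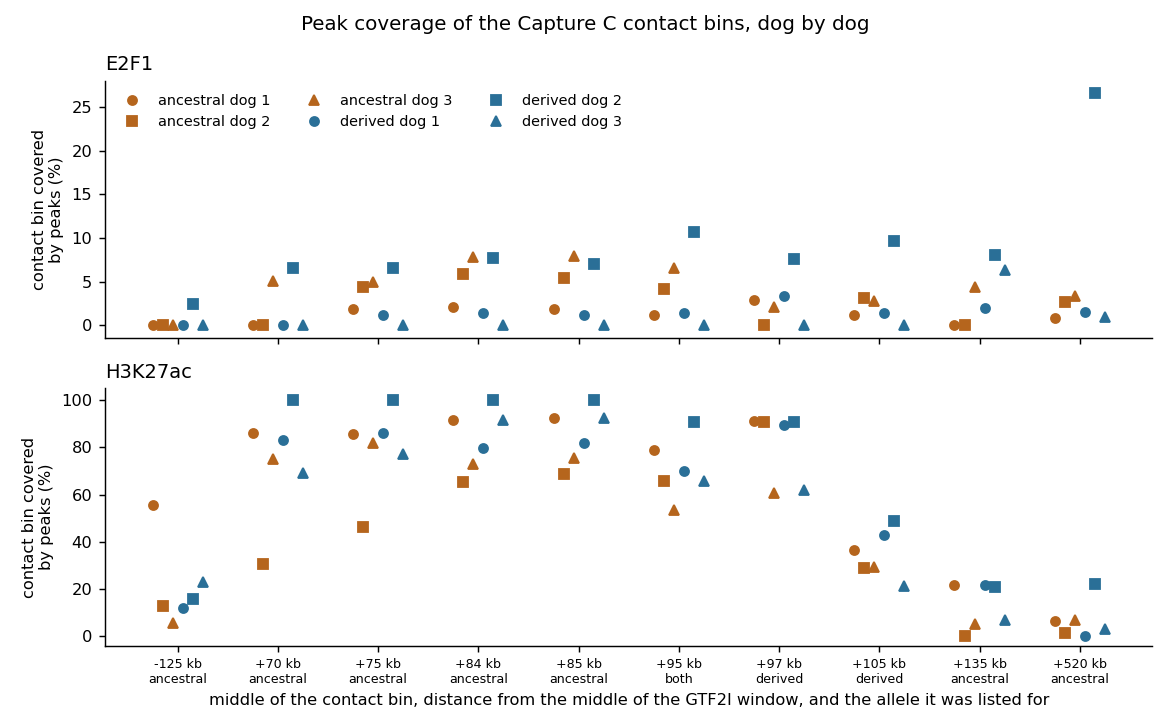
Share of each *Capture C* contact bin covered by peaks (%) in each dog, for *E2F1* (top) and *H3K27ac* (bottom), with bins ordered along the chromosome by their distance from the middle of the GTF2I window and marked by the allele they were listed for. Ancestral (brown) and derived (blue) dogs overlap in every bin, and derived dog 2 stands apart in the last bin, with *E2F1* over 26.7% of it.

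At the site of 401 bp inside *LIMK1*, from 6282462 to 6282862, *H3K27ac* was found in all 3 ancestral dogs and in 2 of the 3 derived dogs (p = 1 by a two-sided Fisher's exact test). The peaks over the site were 1017 to 3792 bp wide, and in derived dog 3 the nearest peak was 3774 bp away. *E2F1* overlapped the site in ancestral dog 3 alone, and in the other dogs the nearest *E2F1* peak within the q limit was 1569 to 4810 bp away.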

How the data were processed

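*ChIP-seq* peak lists of 6 dogs were used. The authors extracted molecular identifiers, trimmed reads with Trim Galore 0.0.6, aligned them to CanFam3.1 with Bowtie (1.1.2 per the labels, whereas the study's methods name bowtie2) with multi-mapped reads kept, collapsed duplicates, and ran peak calling for each dog with MACS2 2.2.0, narrow for *E2F1* and broad for *H3K27ac* (versions per the labels). The deposited score was not used. The fold enrichment (a ratio) and −log10 p and −log10 q are the authors' values and served only within a list. Input-enriched sites are not removed and no scaling between dogs is applied in the lists.

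Members, genes and lists were chosen with earlier results of these data known. Peak numbers are members, and lengths, bins and merged regions use all kept peaks clipped to the locus outside the window. CFA6 was taken to end at its last peak. Tests were exact permutation (3 against 3), exact sign-flip (6 dogs, locus against rest) and Fisher's exact tests, with Benjamini-Hochberg adjustment over contact bins, run in scipy 1.17.1, pandas 2.3.3 and numpy 2.4.6 under Python 3.11.15. The interval and test code was tested on simulated data. Named were all contact bins, the *LIMK1* site, one-genotype regions, *E2F1* regions of all dogs, the 5 widest *H3K27ac* regions, the 3 longest stretches without it, and the 5 bins richest in each mark. *E2F1* regions of 5 dogs and bins that separate the genotypes were added after the data were seen. Coordinates are 1-based. Replicate numbers mark different dogs across genotypes, whether they mark shared batches is not given in the sources used here, and they were used as pairs only as an alternative. Alternatives were all peaks, stricter q, equal peak numbers, shifted bins, other overlaps, the window kept, and each dog left out.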

Additional observations from a re-analysis of the deposited data

Results flagged for a closer look

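Of 58 values given for all 6 dogs, 10 had 1 dog farther from the next than Dixon's 95% critical value for 6 values allows. Chance flags about 1 in 20 groups of independent, untied values, and that rate does not apply to these 58, which include overlapping stretches, bins chosen as the richest and values tied at 0 or at the bin width. The 10 are given as values only. Derived dog 2 had the most *E2F1* peaks in the locus, and the part of depth in this was not tested.

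For *E2F1*, derived dog 2 stood above the other dogs in coverage from 5.5 to 6.0 Mb (4.95%, next 1.88%) and from 6.0 to 6.5 Mb (6.84%, next 2.64%). It also stood above them in the bin from 6.30 to 6.32 Mb (7.60 kb, next 1.03 kb), which is among the richest bins through this dog, and in the contact bins from 5650000 (0.491 kb, next 0), 5880000 (1.93 kb, next 0.623 kb) and 6289184 (8.23 kb, next 1.03 kb). The same cluster of peaks enters the segment from 6.0 Mb, this bin and the last contact bin, and the 5 other dogs were tied at 0 in the first contact bin. In the last contact bin its *H3K27ac* was the highest as well (6.89 kb, next 2.11 kb).

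Ancestral dog 1 had more *H3K27ac* than the others in the contact bin from 5650000 (11.1 kb, next 4.57 kb). In the *E2F1* bin from 6.54 to 6.56 Mb, derived dog 1 had 0 kb and the next dog 1.75 kb. In the *H3K27ac* bin from 7.0 to 7.02 Mb, ancestral dog 3 had 18.9 kb and the others 20 kb, the full width of the bin, so that any lower value would have stood apart.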

How the results depend on the processing

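Peak lists hold no read totals, so a missing peak does not show missing binding, and 3 dogs against 3 cannot give a p below 0.1 under any alternative, so the genotype tests say nothing about stability. Mean coverage and mean peaks per Mb were higher in the locus than on the rest of CFA6 under 46 of 46 alternatives, though at strict q the *E2F1* coverage was lower in the locus in 4 of 6 dogs. Unless stated, differences below are derived minus ancestral, signs turn around values near 0, and the cause was not tested.

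At stricter q the *E2F1* excess of the locus was no longer past the threshold, at 0.0411 percentage points and 0.553 peaks per Mb. Strict q also gave -1.33 *E2F1* peaks, -1.51 kb, -0.0256 percentage points in the lowest segment, 0.333 *H3K27ac* bins, 0 *E2F1* and 32 *H3K27ac* regions of all dogs and 1 one-genotype *H3K27ac* region. With strict q the *E2F1* ratio and the *E2F1* share inside *H3K27ac* could not be computed, since derived dog 1 kept no peak. All deposited peaks gave 5 *E2F1* bins, 5 one-genotype and 6 all-dog *E2F1* regions, and -0.024 and -0.0453 kb of *E2F1* in the contact bins from 5841142 and 5878131. Equal peak numbers per dog gave 0.333 *E2F1* bins, -1.71 kb of *E2F1*, 5 *H3K27ac* peaks and 1 one-genotype region of each mark. The share of *E2F1* peaks inside *H3K27ac*, taken over all dogs as locus minus rest of CFA6, was 2.73 percentage points with all deposited peaks. With equal peak numbers it was 1.86. Shifted bins gave 0.333 *H3K27ac* bins. Requiring a peak to cover at least 50% of a region gave 2 and 4 one-genotype and 0 and 32 all-dog regions (*E2F1* and *H3K27ac*).

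Chosen after seeing the data, at least 2 dogs of 1 genotype and none of the other gave 19 and 11 regions. Leaving out peaks that cross the window gave *H3K27ac* differences of -1.30, -3.36, -3.53, -4.16, -3.23 and -0.612 kb in the contact bins from 5841142, 5850000, 5859985, 5860000, 5870000 and 5880000, and -0.0248 for the log2 ratio.

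With each dog left out, locus minus rest ranged from 0.686 to 1.15 percentage points and 17.5 to 26.8 peaks per Mb (*E2F1*) and from 9.18 to 10.8 and 37.0 to 42.6 (*H3K27ac*), where 5 dogs cannot give a p below 0.0625. Genotype differences ranged from -43.7 to 44.3 and -26.2 to 28.8 peaks, -26.2 to 18.5 and -49.0 to 106 kb, -14 to 12 and -4.83 to 5.67 bins, and -0.337 to 0.0682 and -0.0641 to 0.0694 for the log2 ratio (*E2F1* and *H3K27ac*). One-genotype regions numbered 0 to 8 and 1 to 5, with fewer dogs to satisfy, and *E2F1* regions of all dogs 2 to 7. Contact bins ranged, for *E2F1*, from -0.17 to 0.218 kb (5841142), -0.619 to 0.0333 (5850000), -0.654 to 0.414 (5870000), -0.337 to 0.627 (5880000) and -0.318 to 3.65 (6289184), and for *H3K27ac* from -3.49 to 1.54 (5650000) and -1.04 to 2.40 (6289184).

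No source used here says that a replicate number marks a shared batch. Same-numbered dogs deviated together over CFA6 bins with r = 0.514, 0.194 and -0.101 for *E2F1* and 0.0005, -0.227 and -0.052 for *H3K27ac*, and 3 and 0 of 6 dogs correlated best with their own number. With the replicate block the differences were unchanged, such as 7.67 *E2F1* peaks, with p from 0.75 to 1 (exact, smallest 0.25), and no call changed.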

Other observations

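The share of *E2F1* peaks inside *H3K27ac*, taken as locus minus rest of CFA6, ordered the dogs by genotype. It was 8.23, -0.0749 and 4.80 percentage points in ancestral dogs 1 to 3, against -8.64, -4.82 and -10.6 in derived dogs 1 to 3. The means were 4.32 ± 4.17 and -8.01 ± 2.93 (SD, n = 3 each), and the difference of -12.3 gave the smallest p of the design (exact permutation test, two-sided, p = 0.1). With all deposited peaks the lowest ancestral dog stood at 3.12 and the highest derived dog at 2.71 percentage points, with a difference of -1.09 (exact permutation test, p = 0.1). This comparison was made after the values were seen. Of 30 other stretches of 2.5 Mb on CFA6, 1 (3.33%) showed the same order. It rests on 42 to 218 *E2F1* peaks per dog in the locus, with the fewest in derived dog 1.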
